A study of Mus musculus with 12 samples.

Results

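The hemoglobin genes of the SVR angiosarcoma xenograft, Hba-a1, Hba-a2, Hbb-bs and Hbb-bt, and Alas2, the red cell gene that starts heme synthesis, were taken by gene name from the deposited counts. Each name belonged to 1 identifier, so that 5 of the 54232 genes in the table were members. All 5 passed the filter on low counts, which 12897 genes passed. The 4 hemoglobin genes were lowest in tumors treated with trametinib and cediranib together, with a summed level of 13.2 to 14.5 CPM (counts scaled to library size) in the 3 combination tumors against 71.8 to 1778 CPM in the 3 control tumors.

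SVR is a mouse endothelial angiosarcoma line, and 20000 cells had been injected under the flank skin of athymic nude mice aged 8 to 12 weeks. The labels give C57BL/6 as the strain of all 12 tumors. By the labels, daily gavage began 3 to 7 days later and lasted until the tumor ulcerated or passed 1 cm. The study also describes an experiment in which all mice were taken at 1 time, and it does not say from which of its experiments the sequenced tumors came. The days on drug of each tumor are therefore not known here. Control mice received the vehicle alone, the other groups trametinib at 1 mg/kg, which inhibits the kinase MEK, cediranib at 3 mg/kg, which inhibits the VEGF receptors, or both drugs at these doses, with 3 tumors per group. RNA of the whole frozen tumor was captured with exome probes, and the cells of tumor, stroma, blood and skin, all from mice, were read together. The study chose this capture because RNA degradation was relatively frequent in the tumors. The RNA quality of each tumor was not examined here.

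Adult hemoglobin is a tetramer of alpha and beta chains, each holding a heme group. Its genes are switched on in erythroid precursors of the marrow and spleen, and young red cells still carry the messenger RNA when they enter the blood. Alas2 is the erythroid form of the first, rate-setting enzyme of heme synthesis, whereas Alas1 serves the other tissues.

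The alpha genes lie on chromosome 11 (GRCm38) on the plus strand, Hba-a1 (ENSMUSG00000069919) at chr11:32283511-32284438 and Hba-a2 (ENSMUSG00000069917) at chr11:32296489-32297298. The beta genes lie on chromosome 7 on the minus strand, Hbb-bt (ENSMUSG00000073940) at chr7:103812524-103813996 and Hbb-bs (ENSMUSG00000052305) at chr7:103826534-103828096. Alas2 (ENSMUSG00000025270) lies on chromosome X at chrX:150547375-150570638 on the plus strand. In GENCODE M21 no other gene overlaps a hemoglobin gene, whereas 311 exon bases of Alas2, 12.9% of its exons, are shared with Apex2 on the opposite strand. No source used here gives the strand setting of the counting, and without it reads from these bases cannot be assigned to 1 of these genes. Apex2, a DNA repair nuclease, stood at 2.51 to 7.08 CPM over the 12 tumors.

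The promoters are shown as a description of the members, of which the 4 hemoglobin genes were called together and Alas2 was not. Whether promoter sequence bears on these calls was not tested. Each stretch is the 150 bases before the RefSeq start (GRCm38.p6), 5′ to 3′ on the strand of the gene. These starts differ from the gene coordinates above. The stretches of Hba-a1 and Hbb-bs lie wholly within those coordinates, and the others partly. They are chr11:32283522-32283671 for Hba-a1, chr11:32296342-32296491 for Hba-a2, chr7:103827929-103828078 for Hbb-bs, chr7:103813924-103814073 for Hbb-bt and chrX:150547267-150547416 for Alas2. Capitals mark matches on either strand to 4 motifs. The first is GATAA, the core of a GATA factor site. The second is CACCC, the box bound by the red cell factor KLF1. The third is CCAAT, a box found in many promoters. The last is ATATAA, a box of the TATA type.
Hba-a1: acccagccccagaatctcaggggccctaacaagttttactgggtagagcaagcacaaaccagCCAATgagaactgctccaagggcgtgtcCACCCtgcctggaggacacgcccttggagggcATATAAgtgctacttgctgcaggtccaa
Hba-a2: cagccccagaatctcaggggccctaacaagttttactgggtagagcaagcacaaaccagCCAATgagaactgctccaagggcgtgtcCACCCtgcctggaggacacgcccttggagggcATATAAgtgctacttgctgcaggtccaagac
Hbb-bs: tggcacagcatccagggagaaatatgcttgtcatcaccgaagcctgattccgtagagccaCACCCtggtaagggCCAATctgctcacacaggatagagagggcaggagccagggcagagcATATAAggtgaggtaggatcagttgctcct
Hbb-bt: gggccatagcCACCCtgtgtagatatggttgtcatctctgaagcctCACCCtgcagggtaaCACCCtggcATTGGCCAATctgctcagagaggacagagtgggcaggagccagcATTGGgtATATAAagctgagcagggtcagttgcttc
Alas2: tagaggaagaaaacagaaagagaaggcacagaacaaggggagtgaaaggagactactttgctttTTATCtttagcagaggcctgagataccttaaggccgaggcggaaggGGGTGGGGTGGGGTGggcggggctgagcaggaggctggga

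The 4 hemoglobin promoters each held the last 3 of these motifs, a combination present in 0.423% of 32851 RefSeq promoter stretches of the same length. Taken singly, the CACCC box was present in 37.4% of them, the CCAAT box in 24.5% and the box of the TATA type in 5.35%. Hbb-bt held 3 matches to the CACCC box and 3 to the CCAAT box, 2 of the latter adjoining on opposite strands, and the other hemoglobin genes held 1 of each. The Alas2 stretch held 3 matches to the CACCC box on the opposite strand, 1 to the GATA site, which 13.3% of promoters hold, and no match to the other motifs. These are matches of letters and say nothing of which factor was bound.

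The copies are close in their transcripts too. Over 147 bases aligned without gaps the alpha promoters were identical at 147, and over 149 the beta promoters at 106. The coding sequences of the alpha genes, 429 bases each, differed at 1 base, C381T, counted from the A of the start codon with the Hba-a1 base first. Those of the beta genes, 444 bases each, also differed at 1 base, C417T with the Hbb-bs base first. The 60 coding bases that end with each difference, shown to make plain how little separates the copies, have the differing base in capitals.
Hba-a1: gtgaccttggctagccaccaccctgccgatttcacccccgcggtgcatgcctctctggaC
Hba-a2: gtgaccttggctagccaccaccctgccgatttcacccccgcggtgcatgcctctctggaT
Hbb-bs: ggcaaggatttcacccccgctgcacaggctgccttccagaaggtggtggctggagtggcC
Hbb-bt: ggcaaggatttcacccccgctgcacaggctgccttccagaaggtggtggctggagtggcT

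Windows of 50 bases, the length of a read, were shared with the partner gene over 67.5% of the Hba-a1 transcript, 86.9% of Hba-a2, 65.8% of Hbb-bs and 58.3% of Hbb-bt. How reads with several positions were treated is not given in the sources, so the split of counts within each pair is uncertain and the pair sums are given as well. The reference genome carries the C57BL/6 form of the beta-globin locus, and mouse strains differ there. The sources used here do not give the strain behind the nude hosts' own red cells.

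Library totals ran from 9478865 to 11666094 counts, and 3 counts, the limit that a count of 0 allows, were worth 0.251 to 0.349 CPM. The hemoglobin genes together took 0.00144% to 0.168% of a library, or 142 to 17630 counts. In CPM per kilobase of exon (RPKM), Hbb-bs was the highest of the 5 members in 12 of 12 tumors and Hba-a2 the second in 12 of 12. Hba-a1 was the third in 11 of 12 tumors and Hbb-bt the fourth in 11 of 12. In the control tumors the mean level was 598 ± 790 RPKM for Hbb-bs (SD, n = 3), 233 ± 316 for Hba-a2, 66.6 ± 86.3 for Hba-a1, 47.4 ± 68.9 for Hbb-bt and 1.90 ± 1.803 for Alas2. The order is a description only, because the SD exceeded the mean for the hemoglobin genes and capture probes can differ in yield between genes.

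Among the alpha chain genes, Hba-a2 stood at 57.5, 11.6 and 398 CPM in control tumors 1, 2 and 3, and at 14.0, 16.2 and 21.9 CPM in the trametinib tumors. It stood at 20.8, 101 and 21.7 CPM in the cediranib tumors and at 3.73, 4.26 and 3.24 CPM in the combination tumors. The 3 combination tumors were thus the lowest of the 12, while the trametinib and cediranib tumors lay within the control range. Hba-a1 measured 19.9, 7.69 and 135 CPM in the control tumors, 6.62, 9.87 and 4.60 CPM with trametinib, 2.59, 38.1 and 3.73 CPM with cediranib and 1.11, 3.08 and 0.927 CPM with the combination. Here combination tumor 2 lay above cediranib tumor 1, and the other combination tumors were the lowest.

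Among the beta chain genes, Hbb-bs reached 172, 50.1 and 1156 CPM in the control tumors and 57.2, 25.6 and 59.7 CPM with trametinib. With cediranib it stood at 27.0, 397 and 33.8 CPM, and with the combination at 8.97, 6.34 and 8.71 CPM. Again the 3 combination tumors were below the other 9, by a gap from 8.97 to 25.6 CPM. Hbb-bt, the weaker of the beta genes, measured 8.42, 2.43 and 89.2 CPM in the control tumors, 2.63, 1.28 and 3.26 CPM with trametinib, 1.10, 29.6 and 1.91 CPM with cediranib and 0.706, 0.362 and 0.278 CPM with the combination. The combination values rest on 7, 4 and 3 counts, at the limit of what a library of this depth can show for the last of them.

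Alas2 had 2.13, 2.02 and 9.58 CPM in the control tumors and 1.54, 1.16 and 0.752 CPM with trametinib. It had 2.39, 3.02 and 0.955 CPM with cediranib and 1.51, 0.997 and 2.87 CPM with the combination. The combination tumors overlapped every other group, and the trametinib tumors were all below the control tumors.

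**Figure D1:**
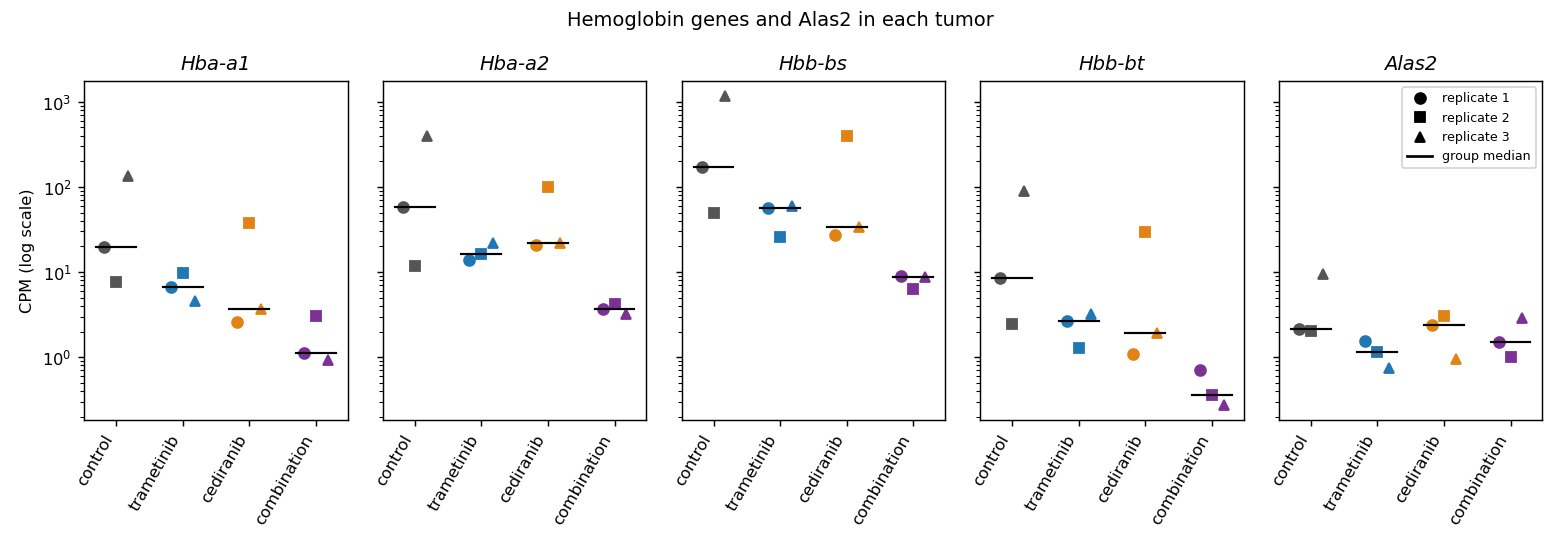
Level of each hemoglobin gene and of Alas2 in the 12 tumors, in CPM on a log scale, with 1 symbol per replicate number and a bar at the group median. Combination tumors are the lowest for Hba-a2, Hbb-bs and Hbb-bt, control 3 is the highest tumor for all 5 genes, and Alas2 overlaps between the combination and every other group.

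Control tumor 3 and cediranib tumor 2 stood apart from their groups. The 4 hemoglobin genes summed to 258, 71.8 and 1778 CPM in the control tumors and to 51.5, 565.5 and 61.1 CPM in the cediranib tumors, ranges of 24.8-fold and 10.99-fold within a group. They summed to 80.4, 52.9 and 89.4 CPM in the trametinib tumors and to 14.5, 14.0 and 13.2 CPM in the combination tumors, ranges of 1.69-fold and 1.10-fold. The range was thus wider in the groups without trametinib than in those with it, at 3 tumors per group. In the cediranib group it came from cediranib 2 alone, as the other tumors had 51.5 and 61.1 CPM. The biological coefficient of variation was 74.0% to 96.6% for the hemoglobin genes and 53.4% for Alas2, against 27.2% for all genes tested. Many fold changes of the members, their correlations and the changed calls of other named genes are also given without control 3, cediranib 2 or both. Levels and shares are given for each tumor or as ranges over tumors. In whole tumors, fewer red cells and less RNA per red cell cannot be told apart.

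The layout of the study asks what each drug did alone and what the pair did together, and a gene was called at an FDR (Benjamini-Hochberg, edgeR's quasi-likelihood test over all 12897 genes) of at most 0.05 with a log2 fold change of 1.5 or more in either direction. Against control, all 4 hemoglobin genes fell in the combination tumors and Alas2 was not called, so that 4 of 5 members were called lower against 1.71% of all genes tested. Hba-a1 changed by -4.97 ± 1.26 on the log2 scale (SE, edgeR FDR 0.0299) and Hba-a2 by -5.37 ± 1.14 (FDR 0.0138), or 31.3-fold and 41.4-fold lower. Hbb-bs changed by -5.84 ± 1.32 (edgeR FDR 0.0187) and Hbb-bt by -6.19 ± 1.63 (FDR 0.0345), or 57.3-fold and 73.2-fold lower. Alas2 differed by -1.34 ± 0.65 (edgeR FDR 0.205), and by only -0.21 without control 3. The median over the 5 members was -5.37, where that over all genes tested was 0.0014. With each pair summed into 1 gene, the alpha pair changed by -5.26 (edgeR FDR 0.0146) and the beta pair by -5.86 (FDR 0.0191).

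The size of these falls rested on control 3. Without it the log2 fold changes were -3.00 for Hba-a1, -3.21 for Hba-a2, -3.80 for Hbb-bs and -3.59 for Hbb-bt, and 1 member, Hba-a2, was called. Leaving out combination tumor 1, 2 or 3 left 0 members called, with edgeR FDRs of 0.0542 to 0.108 for the hemoglobin genes and log2 fold changes of -4.67 to -6.64. Without control 1 or control 2 all 4 were called. With control 3 and cediranib 2 both left out, a choice made after seeing the data, the same 4 members were called at -3.00 to -3.79, with edgeR FDRs of 0.0038 to 0.0173. The combination tumors remained below control tumors 1 and 2 for each hemoglobin gene.

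With trametinib alone, the hemoglobin genes differed from control by -2.95 ± 1.11 (Hba-a1), -3.16 ± 1.00 (Hba-a2), -3.27 ± 1.15 (Hbb-bs) and -3.77 ± 1.34 (Hbb-bt) on the log2 scale, and Alas2 by -1.98 ± 0.67. None of the 5 was called by edgeR, at FDRs of 0.0860 to 0.152, against 1.43% of all genes called lower. At an unadjusted p under 0.05 there were 5 of 5 members and 20.7% of all genes, and both the likelihood ratio test and DESeq2 called 4. Alas2 was the only 1 of 5 members for which the 3 trametinib tumors lay below the 3 control tumors, a pattern that 12.9% of all genes showed. Without control 3 the 5 values shrank to between -0.85 and -1.22.

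With cediranib alone the differences from control did not pass the test. They ran from -1.59 ± 1.07 for Hbb-bs to -1.87 ± 1.05 for Hba-a1 among the hemoglobin genes, and Alas2 differed by -1.10 ± 0.64. No member was called by edgeR (FDR 0.999), as 0% of all genes were called lower. At an unadjusted p under 0.05 there were 0 members, and DESeq2 and the likelihood ratio test called 0. The direction depended on single tumors. Without control 3 the hemoglobin genes stood 0.10 to 0.99 above control on the log2 scale and Alas2 0.03 above, and without cediranib 2 the hemoglobin genes stood at -2.88 to -4.45.

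Combination tumors were compared with each single drug as well. For 4 of 5 members, the hemoglobin genes, the 3 combination tumors lay below the 3 trametinib tumors, a pattern of 12% of all genes tested. Their log2 fold changes against trametinib were -2.01 ± 1.22 (Hba-a1), -2.21 ± 1.06 (Hba-a2), -2.57 ± 1.17 (Hbb-bs) and -2.42 ± 1.69 (Hbb-bt), while that of Alas2 was 0.64 ± 0.69. No member was called by edgeR (FDR 0.276 to 0.671), against 0.14% of genes called lower. There was 1 member, Hbb-bs, at an unadjusted p under 0.05, and DESeq2 and the likelihood ratio test called 0. In the fit without control 3 and cediranib 2, neither of which is a tumor of this comparison, 2 members were called, Hba-a2 at -2.21 ± 0.48 (edgeR FDR 0.0414) and Hbb-bs at -2.57 ± 0.46 (FDR 0.0182). The fold changes were nearly the same and the standard errors smaller.

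Against cediranib the combination tumors differed by -3.10 ± 1.21 (Hba-a1), -3.67 ± 1.08 (Hba-a2), -4.25 ± 1.24 (Hbb-bs) and -4.58 ± 1.603 (Hbb-bt), and Alas2 by -0.24 ± 0.66. None of the 5 was called by edgeR (FDR 0.0575 to 0.865), with 1.16% of genes called lower. At an unadjusted p under 0.05 there were 4 members, the likelihood ratio test called 4 and DESeq2 3. For Hba-a2, Hbb-bs and Hbb-bt, 3 of 5 members, the combination tumors were below all 9 others, a pattern of 3.19% of genes. Without cediranib 2 the hemoglobin differences shrank to between -0.88 and -2.501.

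The averages over the 2 by 2 layout set 6 tumors with a drug against 6 without it. Across the 6 tumors with trametinib, all 4 hemoglobin genes fell, 4 of 5 members against 1.71% of genes called lower. The average effect of trametinib was -3.03 ± 0.82 for Hba-a1 (edgeR FDR 0.0255), -3.42 ± 0.73 for Hba-a2 (FDR 0.0080), -3.76 ± 0.84 for Hbb-bs (FDR 0.0100) and -4.18 ± 1.04 for Hbb-bt (FDR 0.0170). Alas2 differed by -1.11 ± 0.47 (edgeR FDR 0.136), and by -0.55 without control 3. Hba-a2 and Hbb-bs were called in each of the 12 fits that left out 1 tumor, Hbb-bt in 11 and Hba-a1 in 6. Without cediranib 2 the values of Hba-a1 and Hbb-bt were -1.92 (edgeR FDR 0.0907) and -2.76 (FDR 0.0662). Hba-a1 was also not called without control 3, trametinib 1 or 3, or combination 1 or 3, at -2.04 to -3.01 (edgeR FDR 0.0583 to 0.0711). Without both control 3 and cediranib 2 the effects were smaller, at -1.75 for Hba-a2 (edgeR FDR 0.0106) and -1.57 for Hbb-bs (FDR 0.0134), both still called, and at -0.93 for Hba-a1 and -1.45 for Hbb-bt, which were not.

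The average effect of cediranib on the hemoglobin genes was -1.94 to -2.08, with standard errors of 0.70 to 1.03, and that on Alas2 was -0.23 ± 0.47. None was called by edgeR (FDR 0.214 to 0.864), where 0.062% of genes were called lower, although 3 members had an unadjusted p under 0.05. The likelihood ratio test and DESeq2 called 0. Without cediranib 2, Hba-a1 at -3.05 (edgeR FDR 0.0490) and Hbb-bs at -3.25 (FDR 0.0337) were called. With control 3 also left out there were 3 called, Hba-a1 at -2.07 (edgeR FDR 0.0298), Hbb-bs at -2.22 (FDR 0.0127) and Hbb-bt at -2.13 (FDR 0.0450).

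Whether cediranib acted differently with trametinib than without was asked by the interaction. Its values were -0.15 ± 1.53 (Hba-a1), -0.51 ± 1.38 (Hba-a2), -0.98 ± 1.54 (Hbb-bs), -0.81 ± 2.06 (Hbb-bt) and 1.74 ± 0.94 (Alas2). No member and 0% of all genes were called lower by edgeR, with 0 members at an unadjusted p under 0.05 and 0 by DESeq2 or the likelihood ratio test. Standard errors of this size do not allow a statement that the drugs added up.

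**Figure D2:**
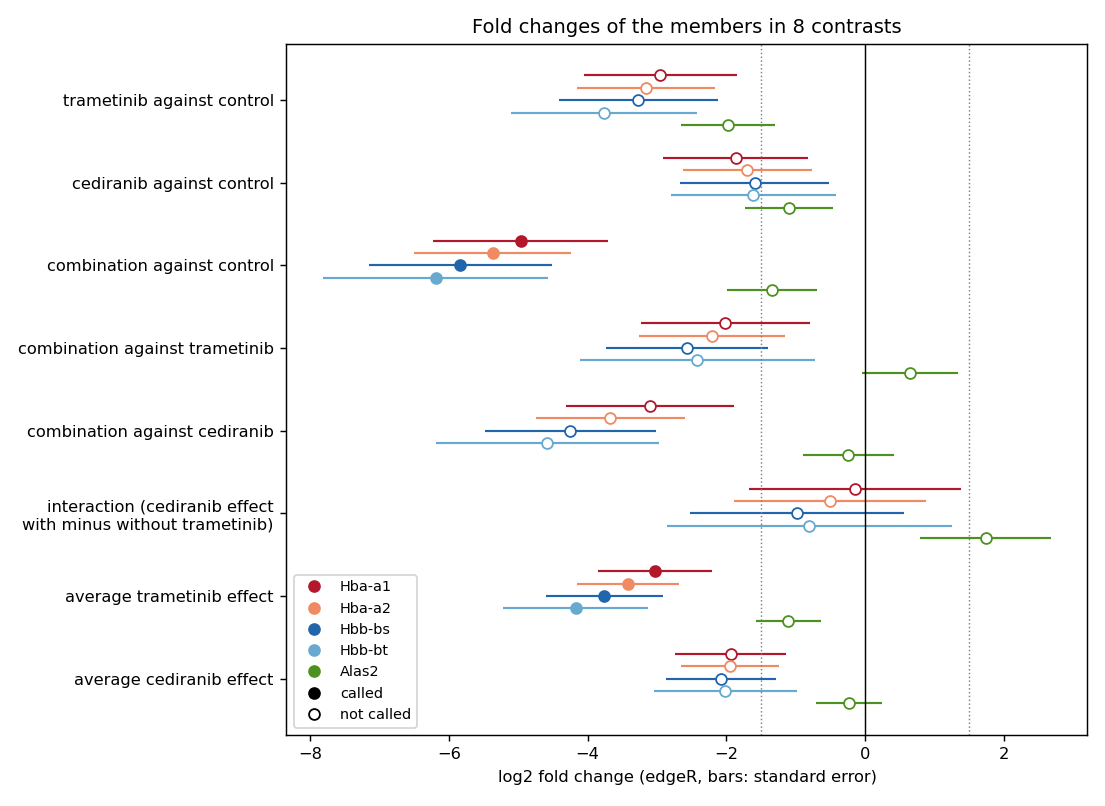
Log2 fold change of the 5 members in the 8 contrasts, with bars for the standard error, filled points for called genes and dotted lines at the fold minimum of 1.5. The hemoglobin genes are called in combination against control and in the average trametinib effect, and Alas2 in none.

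**Figure D3:**
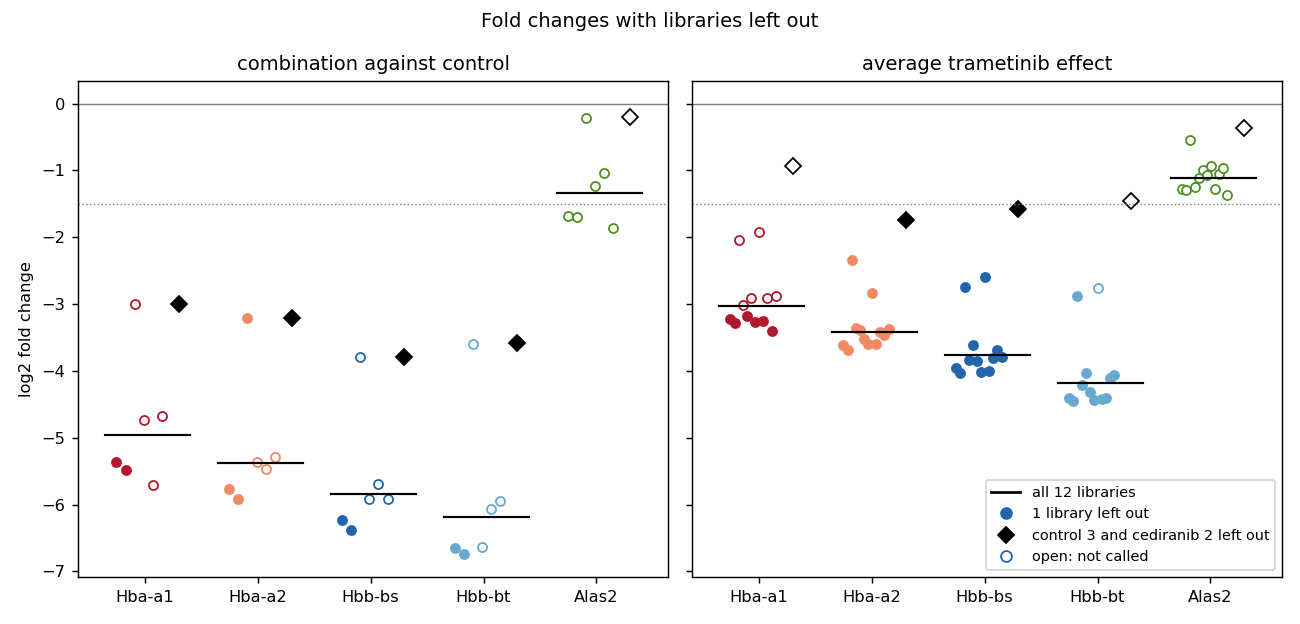
Log2 fold change in combination against control and in the average trametinib effect with all 12 libraries (line), with 1 library left out (circles) and with control 3 and cediranib 2 left out (diamonds), open where not called. In combination against control, the circle nearest 0 of each member is the fit without control 3.

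The make-up of the globin counts varied between tumors of the same group. Hba-a1 took 11.1% to 42.0% of the alpha counts. Its share was 39.8% in control 2 (exact 95% interval 32.8 to 47.1) and 25.3% in control 3 (24.1 to 26.5), and these intervals do not meet. The lowest share, in cediranib 1, was 11.1% (7.39 to 15.9). Because the alpha copies share most of their sequence, this share depends on how shared reads were counted. Hbb-bt took 3.09% to 7.29% of the beta counts, with the largest counts giving 7.16% in control 3 (6.71 to 7.63) and 6.93% in cediranib 2 (6.21 to 7.71). In control 1 the share was 4.67% (3.81 to 5.66), below both.

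Alpha genes together gave 24.6% to 52.3% of all globin counts. Most tumors lay near the 30.0% of control 3 (29.3 to 30.6), but 4 stood higher. These were trametinib 2 at 49.2% (44.6 to 53.9), cediranib 1 at 45.4% (41.0 to 49.8), cediranib 3 at 41.6% (37.7 to 45.5) and combination 2 at 52.3% (44.1 to 60.3). High and low shares occurred in the same group for each drug treatment, and the intervals cover counting error only.

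**Figure D4:**
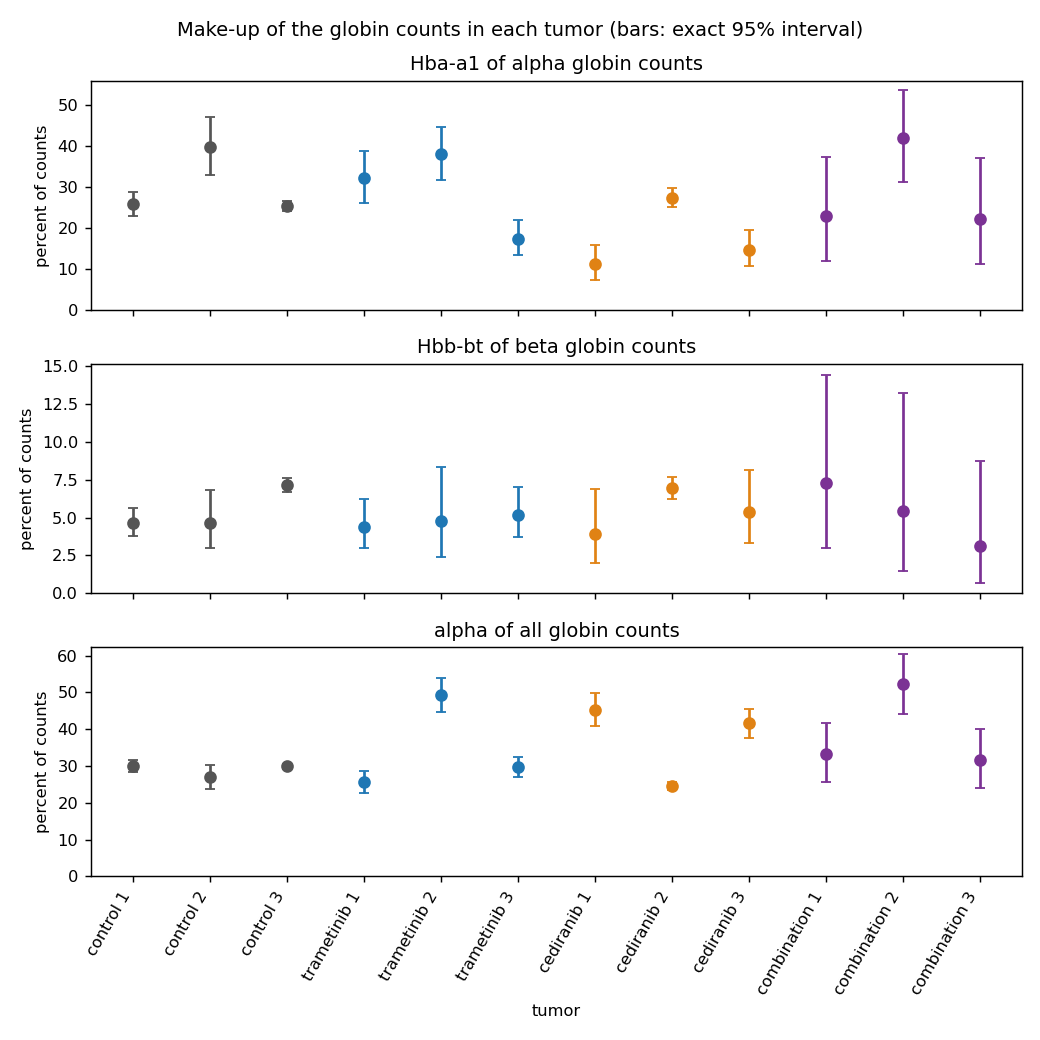
Share of Hba-a1 in the alpha counts, of Hbb-bt in the beta counts and of alpha in all globin counts, in percent for each tumor, with exact 95% intervals for counting error. The alpha share is near 30.0% in the control tumors and from 41.6% to 52.3% in trametinib 2, cediranib 1 and 3 and combination 2.

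The 4 hemoglobin genes rose and fell together over the 12 tumors. Pearson correlations of log2 CPM among them ran from 0.93 to 0.99, and from 0.86 to 0.99 with the group means removed. With Alas2 they ran from 0.61 to 0.65. Without control 3 and cediranib 2, over 10 tumors, the correlations among the 4 ran from 0.79 to 0.98, and those with Alas2 from -0.14 to 0.02. With the group means also removed they ran from 0.06 to 0.91 among the 4. Without control 3 alone the correlations with Alas2 ran from 0.18 to 0.30, and without cediranib 2 alone from 0.58 to 0.64. The link of the hemoglobin genes to Alas2 thus rested mostly on control 3. Part of the shared variation of the 4 within groups rested on control 3 and cediranib 2 together. These are descriptions over tumors whose libraries share depth and scaling. Per 100 globin counts there were 7.10 to 21.8 counts of Alas2 in the combination tumors and 0.534 to 4.65 in the other 9.

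Among the genes whose profile over the 12 tumors was most like the mean of the 5 members were Fau (Pearson r = 0.92), Dll4 (0.90), Gdi2 (0.90), Cxcr4 (0.90), Flt4 (0.90), Fam46c (0.90), Naa60 (0.90), Mest (0.90) and Hspa5 (0.89). Alas2 by itself was most like Mark1 (0.92) and Ttc7b (0.90), neither of which was among the genes most like a hemoglobin gene. Without control 3 and cediranib 2 the first 9 had r from 0.65 to 0.89, Mark1 had 0.85 and Ttc7b 0.76.

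The other genes of red cell formation were mostly below the level the filter admits. Of 9 other globins, among them the embryonic Hba-x, Hbb-y and Hbb-bh1 and the muscle myoglobin Mb, 8 were below the filter, with at most 0.453 CPM in a tumor. The cytoglobin gene Cygb, whose product is found in fibroblast-like cells, was the only one tested. It had 8.25, 11.74 and 22.5 CPM in control tumors and 4.23, 2.27 and 3.34 CPM in combination tumors, a change of -2.11 ± 0.37 (edgeR FDR 0.0068).

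Of 9 erythroid regulators 4 were tested, and Gata1, Klf1 and Gfi1b, which drive the red cell program, had 3, 1 and 3 counts in all 12 libraries together. Epor, the erythropoietin receptor, had 31. None of the 4 tested was called in combination against control or in the average trametinib effect. Zfpm1, a partner of GATA factors, was 15.7, 15.7 and 16.2 CPM in control and 5.75, 7.16 and 7.69 CPM in combination tumors, -1.21 ± 0.21 on the log2 scale (edgeR FDR 0.0065, below the fold minimum). Bcl11a, which silences fetal globin and also acts in other cells, was called higher in the average cediranib effect at 2.15 ± 0.34 (edgeR FDR 0.0225), but not without control 3 (FDR 0.0627). It stood at 0.906, 0.349 and 0.334 CPM with trametinib and 6.25, 4.08 and 6.49 CPM with the combination, 3.36 ± 0.51 apart (edgeR FDR 0.0196). Without combination tumor 2 this call was lost, as 0 genes were called between these groups.

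Of 16 red cell membrane genes 8 were tested. Slc4a1, which encodes the band 3 anion exchanger, had 69 counts (6.96 CPM) in control 3 and 0 to 8 counts in each of the other 11 tumors. Add2, the beta adducin of the membrane skeleton, was the only one called in combination against control and in the average trametinib effect. It stood at 149, 165 and 110 CPM in control, 37.6, 29.9 and 33.4 CPM in trametinib, 182, 125 and 155 CPM in cediranib and 47.3, 33.9 and 36.6 CPM in combination tumors, an average trametinib effect of -2.02 ± 0.14 (edgeR FDR 4.78e-06). Its groups with and without trametinib did not overlap, and it was not raised in control 3.

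Of 16 reticulocyte genes 15 were in the table and 7 were tested. Hemgn and Trim10 had 1 count each over all libraries and Car1, carbonic anhydrase of the red cell, had 0. Of 12 genes of heme synthesis other than Alas2, 9 were tested and 0 were called by edgeR in combination against control or in either average effect. Alas1 measured 12.7, 11.6 and 13.6 CPM in control, 15.4, 25.2 and 16.6 CPM in trametinib, 16.8, 13.0 and 14.5 CPM in cediranib and 17.1, 20.8 and 19.7 CPM in combination tumors. Its average trametinib effect of 0.48 ± 0.14 (edgeR FDR 0.0338) was below the fold minimum. Slc25a37, the mitochondrial iron carrier, differed by -1.42 ± 0.21 between trametinib and control tumors (edgeR FDR 0.0021), also below it.

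Genes that clear hemoglobin and heme included 2 calls in combination against control among 11 tested. Hmox1, heme oxygenase, which breaks heme down, stood at 50.7, 22.9 and 89.5 CPM in control tumors and at 13.0, 5.93 and 11.2 CPM with trametinib. It stood at 16.0, 48.7 and 11.1 CPM with cediranib and 13.0, 10.6 and 14.0 CPM with the combination. Control 3 and cediranib 2 were thus its highest tumors with control 1, and it fell with the combination by 2.12 (edgeR FDR 0.0364) and with trametinib by 2.43 (FDR 0.0279). Without control 3 these differences were -1.56 (edgeR FDR 0.144) and -1.87 (FDR 0.107), and neither was called. Without control 3 and cediranib 2 they were -1.56 (edgeR FDR 0.0397) and -1.87 (FDR 0.0222), both called. Lrp1, a receptor that takes up heme bound to hemopexin among many other ligands, rose in combination against control by 1.58 ± 0.23 on the log2 scale (edgeR FDR 0.0031).

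**Figure D5:**
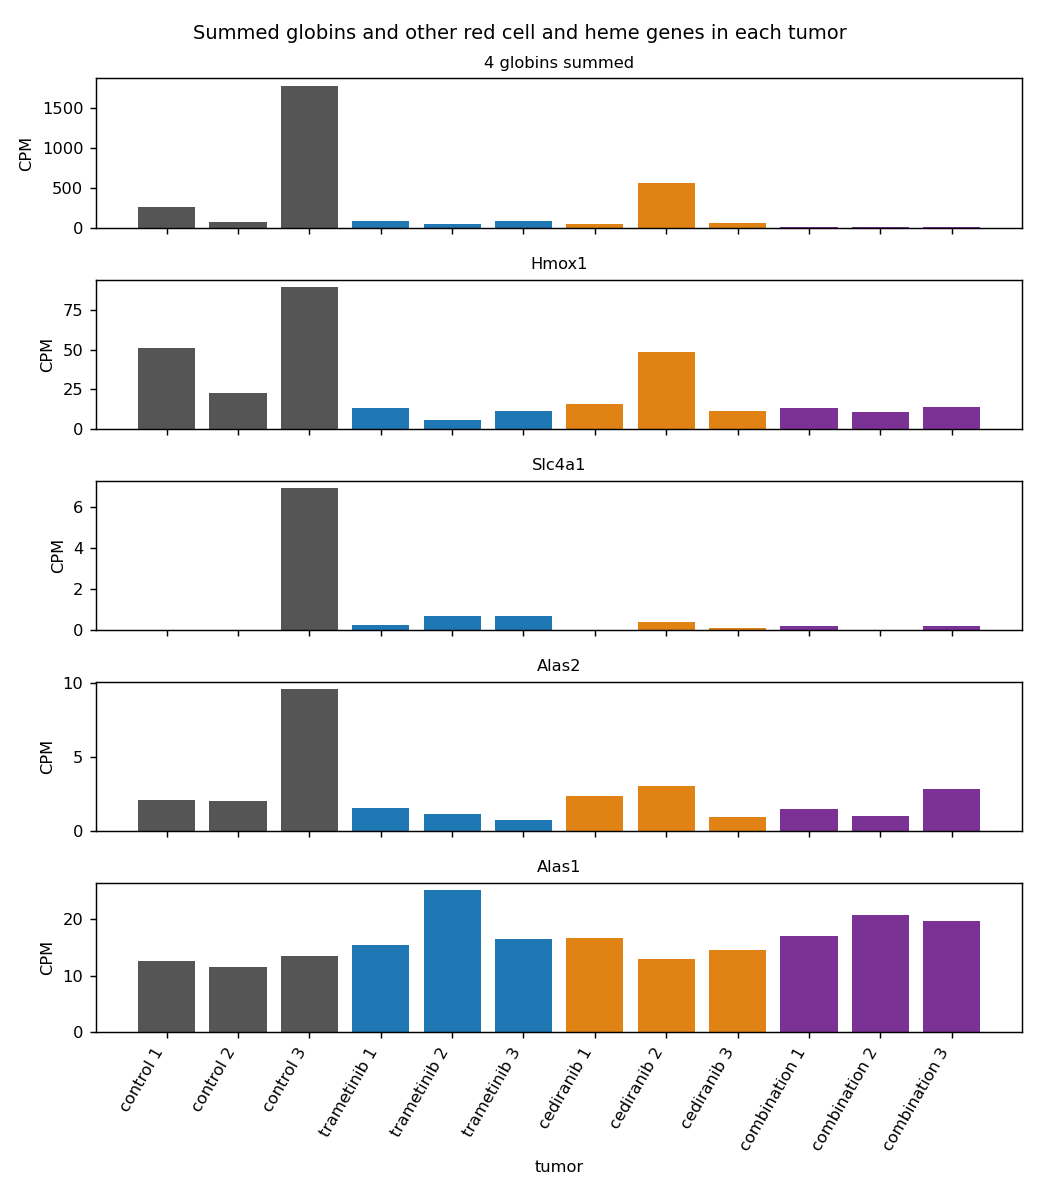
Summed level of the 4 hemoglobin genes and levels of Hmox1, Slc4a1, Alas2 and Alas1 in each tumor, in CPM on linear axes that start at 0. Control 3 is the highest tumor in the first 4 panels and cediranib 2 the second highest for the globins and Alas2, while Alas1 has neither tumor among its highest.

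Markers of other cells moved with the treatments as well, and their part in the hemoglobin result was not tested. Summed over 12 endothelial genes, all with counts, the level was 251 to 490 CPM in control, 114 to 172 in trametinib, 159 to 380 in cediranib and 80.1 to 141 in combination tumors. Of 11 tested, 6 were called lower in combination against control, among them Pecam1 at -2.93 ± 0.49 (edgeR FDR 0.0059) and Tie1 at -2.43 ± 0.51 (FDR 0.0132). The SVR cells are endothelial themselves, so these markers do not separate vessel from tumor. Control 3 at 490 CPM and cediranib 2 at 380 CPM, the tumors with the most hemoglobin counts, also had the highest endothelial sums of the 12. Other tumors did not keep this order. Cediranib 1 had an endothelial sum of 362 CPM but only 51.5 CPM of hemoglobin genes, and control 1 had 251 and 258 CPM. The endothelial genes Dll4 and Flt4 were named above for their likeness to the members. That choice favors genes high in control 3 and cediranib 2, so their levels there are no separate evidence. These were 15.6 and 6.61 CPM for Dll4 and 14.3 and 6.33 CPM for Flt4. Without control 3 there were 2 of 11 endothelial genes called in combination against control, and 2 without both tumors, where Tie1 was at -2.20 (edgeR FDR 0.0502).

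The sum over 12 epidermal genes was 2923 to 4417 CPM in combination tumors, 2843 and 1757 CPM in cediranib 1 and 3, 618 CPM in control 1 and 4.01 to 44.5 CPM in the other 6 tumors, among them control 3 and cediranib 2. Of these 12 genes 3 were called higher in combination against control and 5 in the average cediranib effect. Without control 3 the numbers were 1 and 0, without cediranib 2 they were 7 and 12, and without both 5 and 12. Macrophage markers summed to 394 to 687 CPM in control and 180 to 315 CPM in combination tumors, with Cd68 called lower at -1.59 ± 0.33 (edgeR FDR 0.0127). Muscle markers summed to 7.26 to 24510 CPM over the 12 tumors and were highest in trametinib 2 and control 2. Of the cells that come with blood, neutrophil markers summed to 0.304 to 1.82 CPM in the other 9 tumors and to 3.24 to 7.34 CPM in the combination tumors, so they were higher where the hemoglobin genes were lowest. Of 12 neutrophil genes 3 had no count and 2, S100a9 and Cxcr2, were tested. These gave most of each combination sum, with 1.21, 1.99 and 1.48 CPM of S100a9 and 1.31, 3.81 and 0.927 CPM of Cxcr2. Whether they came from neutrophils was not tested. S100a9, which encodes a calcium-binding protein, was called higher in combination against control (edgeR FDR 0.0262), but not without control 3 (FDR 0.105). It had 3, 0 and 0 counts in control and 12, 22 and 16 in combination tumors. B cell markers summed to 0.425 to 2.42 CPM in control and 1.71 to 2.13 CPM in combination tumors. Platelet markers summed to 73.9 to 101 CPM in control and 41.9 to 57.4 CPM in combination tumors, with 0 of 4 tested called by edgeR in combination against control. In the control tumors Pf4 stood at 3.74 to 8.17 CPM, Gp1ba at 0.607 to 1.87 and Itga2b at 0.506 to 1.11. Most of each control sum thus came from other genes of the list. Pf4, a platelet chemokine, was called lower with trametinib alone (edgeR FDR 0.0311) but not without control 3 (FDR 0.124). Adipocyte markers summed to 3.82 to 20.8 CPM, and 0 of 3 tested were called.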

How the data were processed

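Raw counts per gene, deposited by the authors without normalization, were analysed for 12 SVR tumors, 3 per treatment, with groups taken from the titles and treatment labels. Per the labels and the study's methods the authors called bases with bcl2fastq 1.8.4, aligned 50-base read pairs to GRCm38 with STAR 2.7.1a and counted them with featureCounts 1.6.0. No source used here gives the annotation release or the strand setting. The 12 columns matched the 12 samples, with 0 left over, and no pair of libraries was identical.

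Libraries held 9478865 to 11666094 counts, 99.8% of them on the 12897 genes that passed filterByExpr (minimum count 10, minimum total 15) of 29102 with a count. TMM factors ran from 0.908 to 1.10. All 12 libraries were fitted together with the quasi-likelihood test of edgeR 4.0.16 in R 4.3.3. FDR is the Benjamini-Hochberg adjusted p over all genes tested, and calls needed an FDR of at most 0.05 and a log2 fold change of 1.5 or more in either direction, as the study did. Standard errors were the size of the log2 fold change over the square root of F. A prior count of 2 went into log2 CPM. RPKM used the gene lengths in the deposited table, which equalled the exon union of GENCODE M21 for 97.3% of genes. Alternatives covered DESeq2 1.42.0, the likelihood ratio test, other scalings, no filter, the replicate block, pairwise fits and each library left out. The steps were tested on simulated data. Intervals of shares are exact (Clopper-Pearson) and, like the limit of 3 counts, cover counting error only. Reads carried no molecular identifiers and are not independent molecules. Promoters were read from RefSeq (GRCm38.p6), which held all 5 members, and transcripts from GENCODE M21. No protein sequences were used here.

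The members, the 14 gene lists and the rule for named genes were chosen with earlier results of these data known. The rule takes the 5 members, the 2 largest changes in each direction of each list in the average trametinib effect, every gene called among the erythroid lists, and the genes whose profile was most like the members. Of these the ones that show each group best are described. Some genes that the rule names are not reported here. Apex2, Slc4a1 and the untested list genes were named after their values were seen. The lists cover other globins, heme synthesis, erythroid transcription factors, red cell membrane, reticulocyte cytoplasm, hemoglobin and heme clearance, platelets, neutrophils, B cells, macrophages, endothelium, epidermis, skeletal muscle and adipocytes.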

Additional observations from a re-analysis of the deposited data

How the results depend on the processing

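Another scaling (DESeq2 size factors, library totals, or totals without the members) and summing each near-identical pair changed no call of a member. Other choices moved the number of members called. With no filter on low counts it was 5 for trametinib against control and 4 each for cediranib against control, for the combination against either drug and for the average cediranib effect, from 0 each. The likelihood ratio test gave 4 and DESeq2 4 for trametinib against control, and 4 and 3 for combination against cediranib. Fits of only the groups compared gave 1 for combination against cediranib and 2 for combination against trametinib. Without control 3 and cediranib 2 the numbers were 3 (average cediranib), 2 (average trametinib, from 4), 1 (combination against cediranib) and 2 (combination against trametinib). The cause of these shifts was not tested.

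The number of all genes called moved from 80 for average cediranib to 665 (no filter), 359 (likelihood ratio), 295 (DESeq2) and 196 (without both tumors), and from 87 for combination against trametinib to 773, 401, 347 and 234, with 274 in the pairwise fit. From 0 it moved to 324, 14 and 10 for cediranib against control and to 261, 28 and 28 for the interaction. With no filter it was 701 for average trametinib (from 425), 637 for combination against cediranib (from 315), 1129 for combination against control (from 466) and 687 for trametinib against control (from 310).

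With 1 library left out, members called ranged from 0 to 4 (combination against control), 2 to 4 (average trametinib), 0 to 2 (average cediranib) and 0 to 1 (trametinib against control). All genes called ranged from 1 to 246 (average cediranib), 378 to 441 (average trametinib), 0 to 7 (cediranib against control), 188 to 275 (combination against cediranib), 237 to 575 (combination against control), 0 to 21 (combination against trametinib), 0 to 1 (interaction) and 233 to 289 (trametinib against control).

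No called value changed sign in any alternative. Values that were not called did. In cediranib against control, leave-one-out values ran from -4.09 to 0.10 (Hba-a1), -2.88 to 0.47 (Hba-a2), -3.92 to 0.46 (Hbb-bs), -4.45 to 0.99 (Hbb-bt) and -1.46 to 0.032 (Alas2). In the interaction they ran from -2.12 to 2.08 (Hba-a1), -2.68 to 0.66 (Hba-a2), -3.03 to 1.34 (Hbb-bs) and -3.41 to 2.03 (Hbb-bt). For Alas2 they ran from -0.76 to 0.10 in combination against cediranib and -0.49 to 0.33 in average cediranib. The Hba-a1 interaction was 0.00074 with library totals and 0.11 without both tumors, where Alas2 was 0.16 in average cediranib and 0.11 in combination against cediranib.

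The labels give the groups the same replicate numbers, but these did not pair the tumors: over 18 same-numbered pairs the correlation of deviations from the group means ran from -0.22 to 0.36, and was over 0.1 in 3. With the replicate block 57 genes were called for combination against trametinib, 3 members for combination against control, and the Hba-a1 interaction was 0.14.

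Depth limits Hbb-bt in the combination tumors, where it had 3 to 7 counts.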
